A study of Mus musculus with 6 samples.

Results

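The genes described here are 37 core autophagy genes, chosen as a fixed list by name: the kinase complexes, lipid suppliers, conjugation enzymes, ATG8 proteins and cargo receptors that build an autophagosome. Their transcripts were counted in bulk RNA sequencing of mouse liver, and 36 of the 37 had a mean of at least 1 CPM (counts scaled to library size) over the 6 libraries, out of 12497 genes tested. Male mice were 8 weeks old when placed on a high fat diet, which all of them received for 20 weeks. The control group was 3 mice labelled G3BP1f/f, which carry the floxed alleles and no Cre and are titled wild-type. The other group was 3 mice labelled Alb-cre; G3BP1f/f, in which the albumin promoter drives Cre recombinase in hepatocytes. All 6 mice carried the floxed alleles, and no group with Cre alone and no group on another diet was used here. The question the design asks is how loss of G3BP1, a core protein of stress granules, changes transcripts in a fatty liver.

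In macroautophagy a membrane sac grows around cytoplasm, closes to an autophagosome and fuses with a lysosome. The ULK1 kinase complex receives the signal from the nutrient sensors mTORC1 and AMPK, and a lipid kinase complex around Beclin 1 then marks the membrane with phosphatidylinositol 3-phosphate. ATG9 vesicles and the ATG2 proteins supply lipid, while a ubiquitin-like conjugation system attaches ATG8 proteins (LC3 and GABARAP) to the membrane, where cargo receptors such as p62 dock. In liver this pathway releases amino acids in fasting and removes damaged mitochondria, protein aggregates and lipid droplets.

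G3bp1 itself, at chr11:55469685-55504838 on GRCm38, had 44.1 CPM in control replicate 1, 34.8 CPM in replicate 2 and 40.5 CPM in replicate 3. The libraries labelled as knockout had 44.0, 29.9 and 31.5 CPM. The groups overlapped, and the log2 difference of -0.18 ± 0.22 (SE, n = 3 per group, edgeR quasi-likelihood test) had a Benjamini-Hochberg adjusted p of 0.909. Its sign turned with the scaling, to 0.07 with library totals and 0.16 on deposited TPM. The median of all genes moved as well, from 0.01 to 0.27 under each of these, so G3bp1 stayed below it. The labels do not say which exons the floxed alleles remove, and a sum over whole transcripts also counts the exons outside them. The targeted gene therefore does not show the deletion, and the second group is called the knockout-labelled group throughout. The paralog G3bp2 had 19.5, 34.1 and 35.1 CPM in controls and 28.0, 37.2 and 50.3 CPM in knockout-labelled livers (adjusted p = 0.857, edgeR).

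Library totals ran from 20899135 to 21750007 estimated counts. Knockout-labelled replicates 2 and 3 stood apart from the other 4 libraries: 36.3% and 37.8% of transcripts had a count there, against 30.2% to 31.2% elsewhere, and mitochondrial genes took 9.19% and 10.2% of the counts, against 7.22% to 7.64%. Hepatocyte markers were abundant in all 6 libraries (8 of 8 detected, albumin at 42780 to 88228 CPM). Of 10 Kupffer cell and macrophage markers, 10 lay below 0 on the log2 scale (51.6% of all genes lay above 0), 0 were called and none had a level of 0. Their summed level was 255, 376 and 800 CPM in controls and 364, 256 and 314 CPM in knockout-labelled livers, so only control replicates 2 and 3 exceeded the latter. Control replicate 3 also had the highest sum of neutrophil markers (16.1 CPM) and of T and NK cell markers (14.1 CPM). The part of macrophages in the differences below was not tested, and in bulk liver fewer cells of a type and less RNA per cell cannot be told apart.

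No core autophagy gene differed between the groups past the adjusted threshold of 0.05, in either direction. The same held for all 12497 genes tested (0% called, smallest adjusted p 0.845 by edgeR), so the members' count equals the background. At an unadjusted p below 0.05, edgeR gave 2 of the 36 members, Atg4c and Atg2b, both higher (4.55% of all genes in either direction, 2.65% higher and 1.9% lower). DESeq2 called 0 of the 36 members and 0.0881% of all genes, and it likewise put 2 members under an unadjusted p of 0.05. Of the members, 20 had a log2 difference above 0 and 16 below, with a median of 0.08, where 51.6% of all genes were above 0 and the median was 0.01. The 3 values of each group did not overlap for 6 members, 16.7% of the 36, against 9.34% of all genes. Ulk1, Atg14, Atg4c and Sqstm1 were the 4 with higher values in knockout-labelled livers (4.78% of all genes), and Atg10 and Tax1bp1 the 2 with lower values (4.56%). The remaining member, Atg9b, one of the paired ATG9 lipid scramblases, had 1 to 4 counts per library and was not tested.

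**Figure D1:**
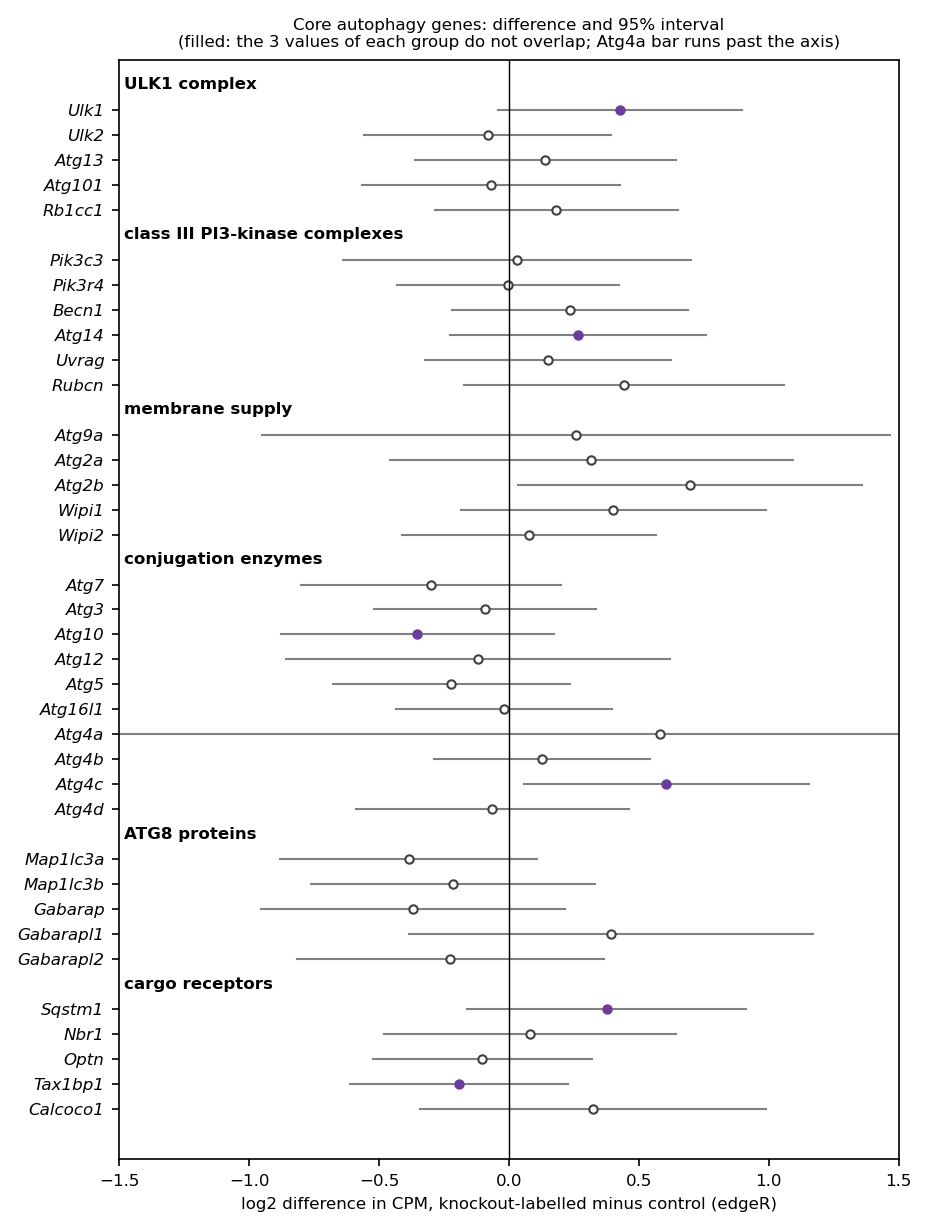
Log2 difference in CPM between knockout-labelled and control livers (horizontal axis) for the 36 core autophagy genes with a mean of at least 1 CPM, in functional groups, with 95% intervals from edgeR. Only the intervals of Atg2b and Atg4c leave out 0, and the interval of Atg4a runs past both ends of the axis.

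Between genes, deposited TPM, which are scaled to transcript length and library size, gave the order of levels. In control livers Gabarap was the highest member at 326 ± 34.3 TPM (SD, n = 3), followed by Sqstm1 at 183 ± 43.5 and Gabarapl1 at 94.2 ± 32.3. Map1lc3b at 48.2 ± 3.69 and Map1lc3a at 47.2 ± 5.12 TPM did not differ beyond their spread. These 4 ATG8 genes and the p62 gene were the 5 most abundant members, above the conjugating enzyme Atg3 at 30.2 ± 3.67 TPM and the fifth ATG8 gene, Gabarapl2, at 29.0 ± 9.96 TPM. The lowest tested members were Atg4c at 1.10 ± 0.024 and Rubcn at 1.58 ± 0.274 TPM.

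The ULK1 complex starts autophagosome formation. Ulk1, its catalytic kinase (chr5:110784488-110810097), had 35.7, 25.9 and 31.4 CPM in controls and 48.6, 38.4 and 38.1 CPM in knockout-labelled livers. Every knockout-labelled value lay above every control value, and the log2 difference was 0.43 ± 0.21 (SE), with a 95% interval from -0.04 to 0.90 and an adjusted p of 0.845 by edgeR. It stayed between 0.30 and 0.54 with any 1 library left out, and it was 0.23 after correction of each library for transcript length and GC content. Rb1cc1 encodes FIP200, the large scaffold of the complex (chr1:6206197-6276648). Its values of 13.1, 18.4 and 16.5 CPM in controls and 15.7, 19.4 and 19.4 CPM in knockout-labelled livers overlapped. Atg13, the regulatory subunit that mTORC1 phosphorylates, had 20.8, 24.5 and 16.3 CPM against 18.6, 24.9 and 24.3 CPM, also overlapping, and its difference of 0.14 was -0.02 after that correction. Ulk2, the second kinase, and Atg101, which stabilises Atg13, had differences of -0.08 and -0.07. In this group 3 of 5 members were above 0, with a median of 0.14.

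The class III PI3-kinase complexes make the lipid mark. Atg14, the subunit that directs the complex to autophagosome formation (chr14:47540893-47570649), had 9.31, 8.81 and 6.57 CPM in controls and 10.2, 10.1 and 9.34 CPM in knockout-labelled livers. Its groups did not overlap but touched, at 9.31 CPM in the highest control and 9.34 CPM in the lowest knockout-labelled library, and the log2 difference was 0.26 ± 0.22 (SE, adjusted p = 0.862 by edgeR). Rubcn encodes Rubicon, which restrains the complex and slows autophagosome maturation (chr16:32821703-32877766). Its control values were 6.97, 5.64 and 5.62 CPM, and the knockout-labelled ones were 5.65, 9.33 and 9.80 CPM. Replicates 2 and 3 of the knockout-labelled group were above all controls while replicate 1 was level with the lowest controls, and the difference was 0.44 ± 0.27 (SE). Becn1, which encodes the scaffold Beclin 1 (chr11:101285952-101302286), had 23.0, 31.0 and 32.5 CPM against 31.5, 33.8 and 36.6 CPM. Only control replicate 1 was well below the rest, and without it the difference of 0.24 was 0.10. The catalytic subunit Pik3c3 (0.03), the membrane-anchoring kinase Pik3r4 (0.00) and Uvrag (0.15), which takes the place of Atg14 in a second complex, differed by less than their standard errors. Of 6 members, 5 were above 0, with a median of 0.19.

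All 5 tested members that supply membrane had a log2 difference above 0, with a median of 0.32, the highest of the 6 groups, and none of the 5 was free of overlap between the groups. Several have long transcripts, a class that was higher in knockout-labelled livers across all genes, as given below. After correction for length and GC content 3 of the 5 were above 0, with a median of 0.18, Atg9a was at -0.0049 and Wipi2 at -0.13. Atg2b, one of the paired lipid transfer proteins that bridge the endoplasmic reticulum and the growing sac (chr12:105616136-105685211), had 11.1, 10.8 and 11.5 CPM in controls. Knockout-labelled replicate 1 had 10.5 CPM, below all controls, whereas replicates 2 and 3 had 21.9 and 21.6 CPM. The log2 difference of 0.70 ± 0.29 (SE) had an unadjusted p of 0.041 and an adjusted p of 0.845 (edgeR). It was 0.97 without knockout-labelled replicate 1. With the mean effective transcript length as an offset it turned to -0.12, and the transcripts to which the counts were assigned also differed, as given below. Its paralog Atg2a had 30.8, 16.0 and 12.1 CPM in controls and 21.2, 22.6 and 29.5 CPM in knockout-labelled livers, with control replicate 1 the highest of all. Wipi1, which binds the lipid mark and recruits ATG2, had 5.85, 5.36 and 4.14 CPM against 5.52, 6.55 and 8.21 CPM, with 1 of 3 knockout-labelled values inside the control range. Its difference was 0.40 ± 0.26 (SE), and Wipi2, which recruits the conjugation enzymes, differed by 0.08.

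Atg9a, the membrane scramblase of the vesicles that seed the sac, was named after its values were seen. It had 9.05, 19.0 and 15.6 CPM in controls and 5.09, 21.8 and 25.2 CPM in knockout-labelled livers. Replicate 1 was the lowest in both groups, and the difference of 0.26 ± 0.53 (SE) became 0.69 without knockout-labelled replicate 1 and -0.11 without knockout-labelled replicate 3.

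The conjugation enzymes were split, with 3 of 10 members above 0 and a median of -0.08. Atg4c, a protease of the family that trims ATG8 proteins before conjugation (chr4:99193934-99259787), had 4.42, 4.27 and 3.76 CPM in controls and 5.22, 7.39 and 6.32 CPM in knockout-labelled livers. The groups did not overlap, and the log2 difference of 0.60 ± 0.24 (SE) had an unadjusted p of 0.034 and an adjusted p of 0.845 (edgeR). It was between 0.48 and 0.72 with any 1 library left out, and between 0.51 and 0.87 under the scaling, length and TPM alternatives. Atg10, the E2-like enzyme for Atg12 (chr13:90935356-91223968), had 5.53, 5.64 and 6.52 CPM in controls against 5.22, 4.02 and 4.61 CPM. Every knockout-labelled value lay below the controls. The difference of -0.35 ± 0.23 (SE) was 0.05 on deposited TPM, where the median of all genes was 0.27.

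Atg7, the E1-like enzyme that activates both Atg12 and the ATG8 proteins (chr6:114643097-114860614), had 52.9, 36.5 and 36.6 CPM in controls and 37, 29.5 and 35.9 CPM in knockout-labelled livers. Control replicate 1 was the highest, and the difference of -0.30 ± 0.22 (SE) was -0.10 without it. Atg5, the protein to which Atg12 is joined (chr10:44268358-44364291), had 34.4, 49.9 and 42.1 CPM against 33.6, 36.4 and 38.3 CPM. The groups overlapped. Its difference of -0.22 ± 0.20 (SE) was 0.05 with library totals and 0.15 on TPM, where the median of all genes was 0.27 under each. Atg3, the E2-like enzyme for the ATG8 proteins (-0.09), Atg12 (-0.12), Atg16l1, which places the conjugation at the membrane (-0.02), and the proteases Atg4b (0.13) and Atg4d (-0.07) differed by less than their standard errors.

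Atg4a, another of these proteases (chrX:140956907-141164270), was named after its values were seen. Its estimated counts were 11, 130 and 117 in controls and 0, 182 and 282 in knockout-labelled livers. The 0 in knockout-labelled replicate 1 allows up to 0.129 CPM, the level of 3 counts, and control replicate 1 had 0.585 CPM, where the other 4 libraries had 5.57 to 11.8 CPM. Replicate 1 was thus low in both groups, and the difference of 0.58 ± 1.24 (SE) is smaller than its error. A processed copy, Atg4a-ps, matches Atg4a at 99.3% over 2115 bases and had a count of 0 in every library, and reads from it and from Atg4a can be told apart only where the copies differ.

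Among the ATG8 proteins, which are conjugated to the membrane and tether cargo, 4 of 5 lay below 0, the median log2 difference was -0.23, and none was free of overlap. Gabarap, the most abundant of them (chr11:69991143-69994951), had 321, 346 and 343 CPM in controls and 345, 232 and 203 CPM in knockout-labelled livers. Knockout-labelled replicates 2 and 3 lay below all controls, while replicate 1 was in the control range, and the difference was -0.37 ± 0.26 (SE, adjusted p = 0.849 by edgeR). Map1lc3a (chr2:155276297-155278073) followed the same pattern at 46.1, 52.9 and 51.4 CPM against 48.9, 33.1 and 33.1 CPM, a difference of -0.39 ± 0.22 (SE). Map1lc3b, which encodes the LC3 protein used most as a marker of autophagosomes (chr8:121590361-121598760), had 110, 132 and 116 CPM in controls. Its knockout-labelled values were 132, 97.6 and 78.9 CPM, again with replicate 1 level with the controls.

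Gabarapl2 (chr8:111940703-111953612) had 39.7, 72.5 and 66.3 CPM in controls and 58.3, 45.6 and 48.6 CPM in knockout-labelled livers, so control replicate 1 was the lowest of the 6. Gabarapl1 (chr6:129533160-129542346) went the other way, at 143, 283 and 222 CPM against 180, 340 and 331 CPM. Replicate 1 was the lowest within each group, and the difference was 0.39 ± 0.34 (SE). Without replicate 1 of both groups, an alternative chosen after seeing the data, the differences were -0.67 for Gabarap, -0.66 for Map1lc3a, -0.50 for Map1lc3b, -0.56 for Gabarapl2 and 0.41 for Gabarapl1.

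**Figure D2:**
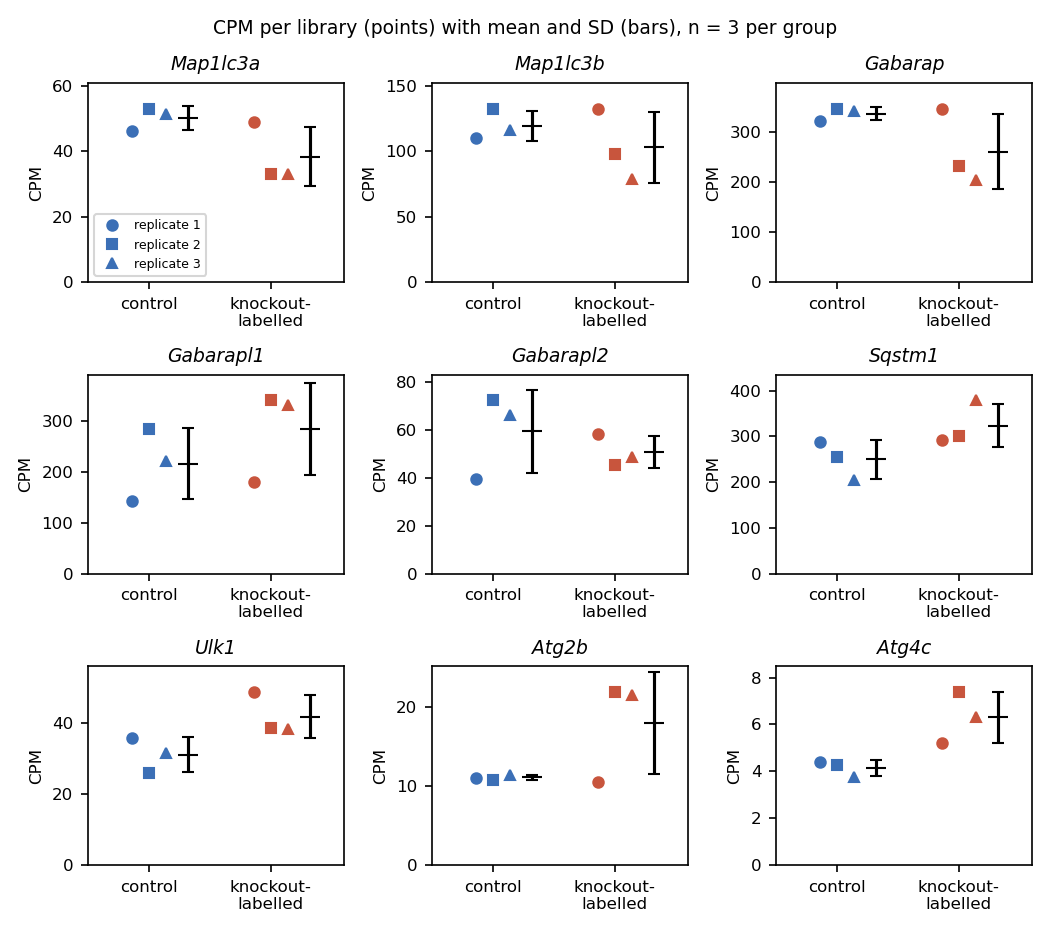
CPM in each library (points, shape by replicate number) with the mean and SD of each group of 3 (bars) for the 5 ATG8 genes, Sqstm1, Ulk1, Atg2b and Atg4c; each vertical axis starts at 0. Gabarap and Map1lc3a show knockout-labelled replicate 1 among the controls and replicates 2 and 3 below them, Atg2b shows replicate 1 just below the controls and the other 2 above them, and Ulk1, Atg4c and Sqstm1 show no overlap.

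Transcript length moved with these differences across all genes. The length of a gene is here the mean over its transcripts, weighted by their estimated counts in all libraries. It thus rests on the transcript assignments described below, as does the correction for length. The median log2 difference was -0.25 for the 1837 tested genes with a mean length of 801 to 1500 bases and 0.17 for the 3313 over 4000 bases. Relative to the mean of the libraries, the shorter class was at -0.18 and -0.27 in knockout-labelled replicates 2 and 3 and at 0.10 to 0.18 in the other 4. Map1lc3a (mean of 1007 bases) and Gabarap (mean of 1075 bases) belong to the shorter class. After correction for length and GC content Map1lc3a was at -0.01 and Gabarap at -0.13, while Map1lc3b (2393 bases) was at -0.27 and Gabarapl1 (1819 bases) at 0.46. The signs of Map1lc3b and Gabarapl2 turned with library totals (0.05 and 0.03) and on deposited TPM (0.09 and 0.29). The median of all genes was 0.27 under each of these.

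Of the cargo receptors, which bind ubiquitinated material and ATG8 proteins at once, 3 of 5 were above 0, with a median of 0.08. Sqstm1, which encodes p62 (chr11:50199366-50210827), had 288, 255 and 205 CPM in controls and 293, 300 and 378 CPM in knockout-labelled livers. The groups did not overlap, although control replicate 1 and knockout-labelled replicate 1 differed by few CPM, and the log2 difference was 0.38 ± 0.23 (SE, adjusted p = 0.845 by edgeR). Tax1bp1, a receptor that recruits the initiating kinases to aggregates (chr6:52713729-52766780), had 117, 129 and 123 CPM against 109, 101 and 114 CPM. It was lower in all 3 knockout-labelled livers, with a difference of -0.19 ± 0.18 (SE). This turned to 0.07 with library totals and 0.16 on TPM, where the median of all genes was 0.27 under each. Calcoco1, described as a receptor for the endoplasmic reticulum and the Golgi (chr15:102706777-102722178), had 27.2, 18.9 and 16.3 CPM against 17.1, 29.3 and 31.7 CPM. Knockout-labelled replicate 1 lay inside the control range, and the difference was 0.32 ± 0.29 (SE). Optn, a receptor for bacteria and mitochondria, and Nbr1, which acts with p62 on aggregates, differed by -0.10 and 0.08.

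For some members, such as Gabarapl1, 1 transcript held nearly all counts in every library (Gabarapl1-201, 99.9% to 100%). For others the transcripts to which the counts were assigned varied widely between libraries. For Sqstm1 most of this variation was between a full-length transcript, Sqstm1-202 (2037 bases, 8 exons), and Sqstm1-204 (953 bases, 3 exons), which covers the 3′ end alone and whose start is not found in the annotation. The second of these skips the first part of the exon before the last, so the pair can be told apart at the following junctions. These are shown because the shares of both transcripts are given below. The capitals mark the first 15 bases of the downstream exon, on the minus strand of chromosome 11 of GRCm38, after an upstream exon that ends at base 50202814 in both. The downstream exon begins at base 50202594 in Sqstm1-202 and at base 50202429 in Sqstm1-204.
Sqstm1-202: gtgggacagccagagGAACAGATGGAGTCG
Sqstm1-204: gtgggacagccagagGAAGCTGCCCTATAC

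Sqstm1-204 took 85.1%, 41.2% and 60.0% of the gene's counts in controls and 74.6%, 10.4% and 9.4% in knockout-labelled livers. Sqstm1-202 took 7.0%, 44.0% and 28.9% in controls and 11.7%, 72.0% and 75.9% in knockout-labelled livers. Replicate 1 of both groups and control replicate 3 thus had most Sqstm1 counts on the 3′-end transcript, and knockout-labelled replicates 2 and 3 had most of them on the full-length one. These shares are the deposited estimates of the quantifier, not counts of reads across the printed junctions. The mean transcript length follows from the share, and the log2 difference of Sqstm1, 0.38 on counts, was -0.03 with effective transcript length as an offset and 1.31 when only protein-coding transcripts with a found start were summed.

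Gabarap showed the same kind of split, between Gabarap-201 (1351 bases) and Gabarap-202 (750 bases). The short form starts later, with an exon 1 of 164 bases against 660, and also has a shorter exon 3, of 25 bases against 119. In the junctions below the capitals are the first 15 bases of exon 3, on the plus strand of chromosome 11. Exon 3 begins at base 69992582 in Gabarap-201 and at base 69992676 in Gabarap-202, after an exon ending at base 69992443.
Gabarap-201: cttctgatcttacagTTGGTCAATTCTACT
Gabarap-202: cttctgatcttacagTGCCACGATGGGTCA

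Gabarap-202 took 61.9%, 37% and 44.8% of the counts in controls and 60.9%, 31.9% and 29.6% in knockout-labelled livers. The short form was again highest in replicate 1 of each group. For Atg2b the share of Atg2b-202, a transcript of 6201 bases annotated with a retained intron, was 36.5%, 27.5% and 23.7% in controls and 34.3%, 56.8% and 65.5% in knockout-labelled livers. That transcript alone among the 75 member transcripts tested had an unadjusted p below 0.05 (0.028, adjusted 0.999, edgeR over 22297 transcripts, 0% called). In place of it, Atg2b-205 (1736 bases) had 57.1%, 47.8% and 61.3% in controls, and 57.6%, 6.4% and 0% in knockout-labelled livers. Atg7-211, a short transcript of 590 bases with no coding annotation, took 34.0%, 14.9% and 19.7% in controls and 24.8%, 2.3% and 0% in knockout-labelled livers. With effective length as an offset the Atg7 difference was -0.96, against -0.30 on counts.

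Pik3c3, Nbr1 and Atg9a, named here after their values were seen, had other transcript shares in replicate 1 of both groups than in the other 4 libraries. Pik3c3-204, annotated for nonsense-mediated decay, held 85.3% and 87.6% of the Pik3c3 counts there, and at most 11.6% in the other 4 libraries. Atg9a-201 held 0% there and 38.9% to 87.0% in the others. Nbr1-217, whose start is not found, held 97.3% and 98.0% there, and 80.0%, 90.5%, 59.6% and 52.4% in the others. In sum, transcripts without a found start carried 24.6%, 10.8% and 13.1% of the members' counts in controls and 20.1%, 7.91% and 7.36% in knockout-labelled livers, against 1.16% to 4.61% for all genes tested. Sqstm1 and Nbr1 held most of that share, which was 1.92% to 4.52% over the members without them. The mean length of the transcripts counted was lowest in replicate 1 of both groups for 10 of 35 members with several transcripts, 28.6%, and for 25.3% of all such genes, so this pattern was about as frequent outside the list.

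**Figure D3:**
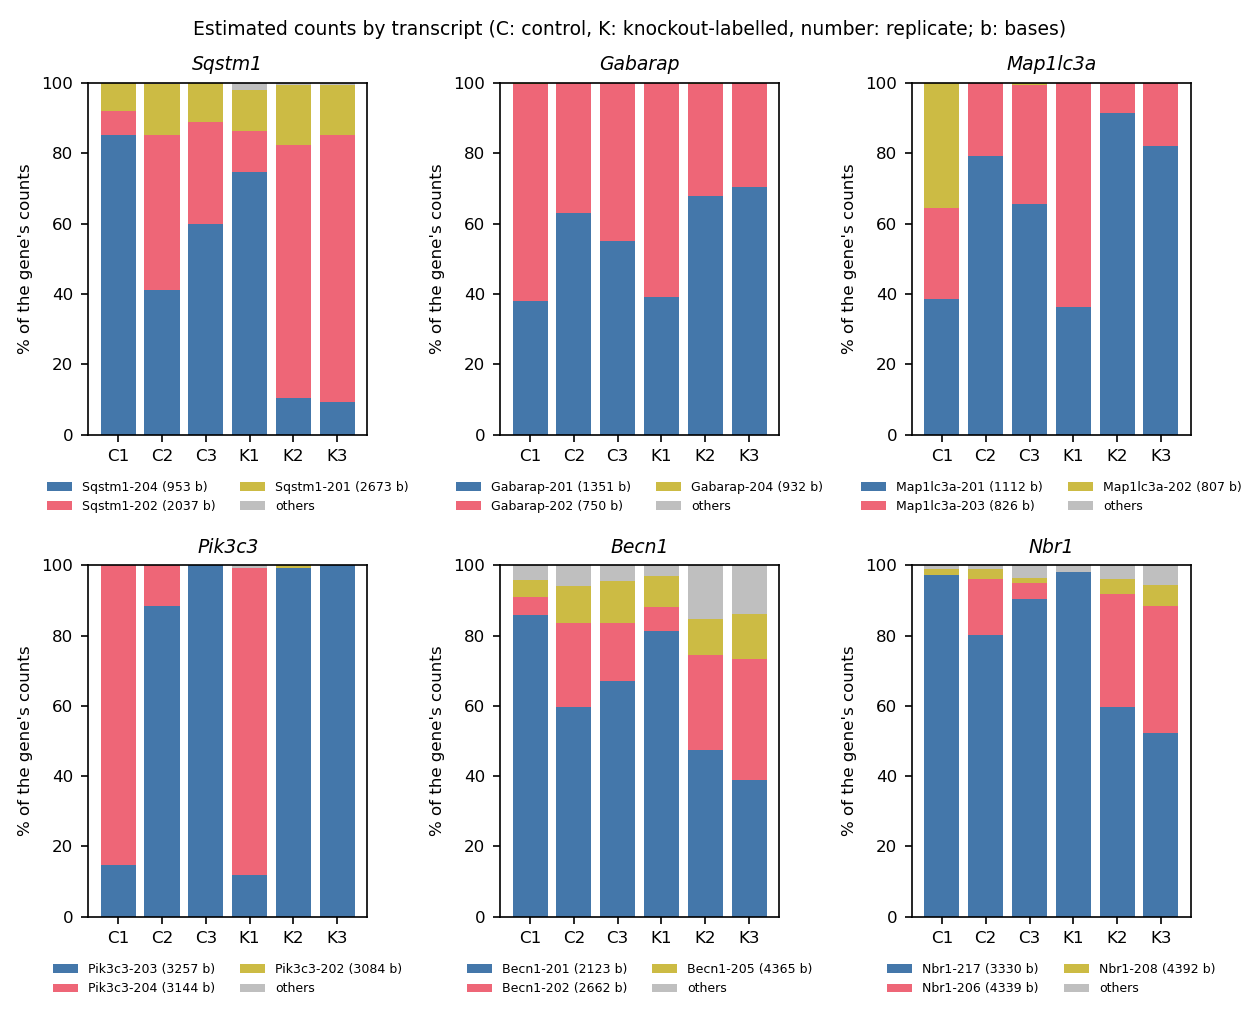
Share of each gene's estimated counts (vertical axis, percent) on its 3 leading transcripts and all others, per library (C control, K knockout-labelled, with the replicate number), for Sqstm1, Gabarap, Map1lc3a, Pik3c3, Becn1 and Nbr1. C1 and K1 resemble each other in the share of Sqstm1-204, Gabarap-202 and Pik3c3-204, and K2 and K3 have the lowest shares of Sqstm1-204.

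The transcription factors TFEB and TFE3 act on autophagy and lysosome genes through E-boxes. RefSeq promoters on GRCm38.p6, from 250 bases before to 50 after a start, were matched for 31 of the 37 members, and Map1lc3a, Pik3c3, Atg16l1, Rb1cc1, Atg12 and Becn1 had none in the table. The palindrome CACGTG, the same on both strands, occurred in 5 of the 36 promoters of these members, 13.9%, and in 7.15% of all 32851 promoters of 300 bases. The longer CLEAR palindrome, which extends it by 2 bases on each side, occurred in 0 of the 36 and in 0.326% of all promoters. The windows with the motif, in capitals, are shown to give these letters in their surroundings.
Atg14, chr14:47568418-47568447, minus strand: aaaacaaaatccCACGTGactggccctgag
Atg3, chr16:45158723-45158752, plus strand: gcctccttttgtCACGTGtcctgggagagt
Atg3, chr16:45158746-45158775, plus strand: ggagagtcgagtCACGTGaggccttaggtg
Atg5, chr10:44268313-44268342, plus strand: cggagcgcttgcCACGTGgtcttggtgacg
Atg7, chr6:114670952-114670981, plus strand: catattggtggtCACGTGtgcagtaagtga
Rubcn, chr16:32868437-32868466, minus strand: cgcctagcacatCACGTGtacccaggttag
The Atg7 window belongs to a RefSeq start inside the gene. The leading Atg7 transcript, Atg7-201, begins at base 114643097, and none of the Atg7 transcripts counted begins near the window. The log2 differences of these genes had both signs: 0.26 for Atg14 and 0.44 for Rubcn, against -0.09 for Atg3, -0.22 for Atg5 and -0.30 for Atg7.

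Outside the core list, 31 further autophagy genes (other machinery and selective receptors) gave 0 called in either direction, 14 above 0 and 17 below, with a median of -0.05. In this list 2 had an unadjusted p below 0.05 (4.55% of all genes), and 3, all lower, had no overlap (9.68%, against 9.34% of all genes). Tex264, a receptor for the endoplasmic reticulum, had 101, 85.9 and 94.2 CPM in controls and 81.3, 56.4 and 62.5 CPM in knockout-labelled livers (log2 -0.49 ± 0.21 SE, unadjusted p = 0.047, adjusted p = 0.845, edgeR). Wdr45, a WIPI family protein, had 33.1, 38.5 and 34.3 CPM against 29.2, 25.4 and 27.1 CPM. Both were lower in CPM in all 3 knockout-labelled livers. Their mean transcript lengths (1389 and 1455 bases) belong to the class of 801 to 1500 bases, whose median over all genes was -0.25. On deposited TPM, where the median of all genes was 0.27, the groups overlapped for both. Tex264 had 50.1 to 64.0 TPM in controls and 44.3 to 57.1 TPM in knockout-labelled livers. Wdr45 had 18.8 to 23.8 TPM against 19.8 to 27.6 TPM. The other gene without overlap in CPM, named after its values were seen, was Tmem41b, a lipid scramblase. Wdfy3, an adaptor for aggregates, had 10.5, 11.1 and 14.4 CPM against 13.0, 20.7 and 21.2 CPM, with knockout-labelled replicate 1 inside the control range. Ei24, a membrane protein of the endoplasmic reticulum, stayed between 0.302 and 1.05 CPM in controls and knockout-labelled replicate 1, and had 4.95 and 3.43 CPM in replicates 2 and 3.

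Of 20 genes for upstream kinases and transcription factors, 9 were above 0 and 11 below, with a median of -0.01. In this list 0 were called and 1 had an unadjusted p below 0.05 (4.55% of all genes). That gene was Prkab1, a regulatory subunit of AMPK, with 12.0, 12.2 and 8.81 CPM in controls and 15.3, 19.2 and 14.7 CPM in knockout-labelled livers. It was the only 1 of the 20 without overlap between the groups (5%, against 9.34% of all genes). Its log2 difference was 0.58 ± 0.22 (SE, unadjusted p = 0.028, adjusted p = 0.845, edgeR). The other beta subunit, Prkab2, had 1.81, 0.931 and 1.62 CPM against 2.03, 1.72 and 2.60 CPM, with overlap. Deptor, an inhibitor of mTOR, had 107, 89.5 and 76.1 CPM against 88.9, 62.6 and 66.5 CPM, and Tfe3 had 18.6, 11.5 and 13.0 CPM against 14.7, 16.3 and 18.7 CPM. Both pairs of groups overlapped.

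The plot of named genes by processing shows how far these differences depend on scaling and length. When library totals replaced the TMM factors, 32 of the 36 members were above 0 and their median was 0.35, but the median of all genes also moved by 0.26 on the log2 scale. Relative to that shift the median of the members moved little. After correction for length and GC content, 14 of 36 were above 0, among them 3 of 6 in the PI3-kinase complexes and 2 of 5 cargo receptors, whose median was then -0.05. Leaving out knockout-labelled replicate 1 raised the members without overlap from 6 to 23, or 63.9%, where 36% of all genes had none. Leaving out control replicate 1 gave 13, or 36.1%, where 27.9% of all genes had none. Without replicate 1 of both groups the count was 28, or 77.8%, beside 54.6% of all genes. The share among all genes thus also rose with fewer libraries. On deposited TPM 7 members had no overlap, 19.4% against 20.1% of all genes. After correction for length and GC content it was 4, or 11.1% against 8.04%. With only protein-coding transcripts with a found start it was 4, or 11.4% against 9.12%.

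**Figure D4:**
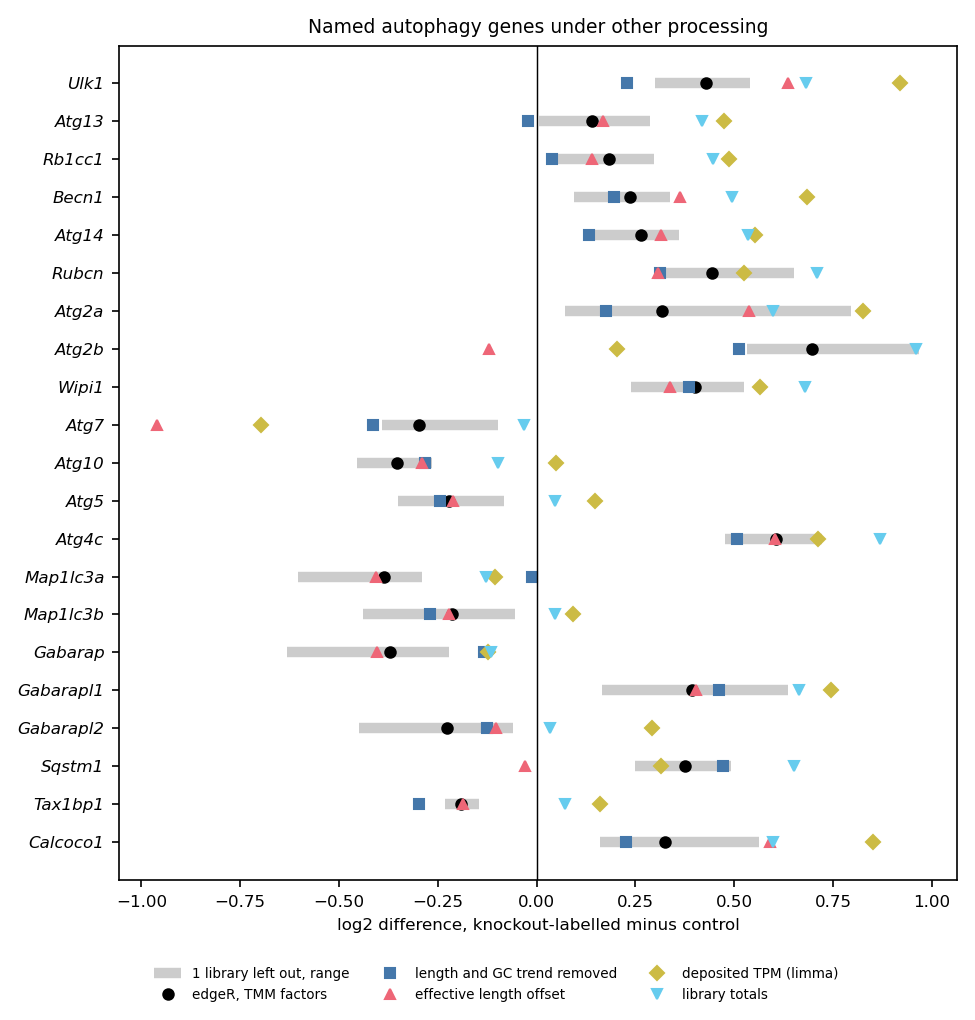
Log2 difference between knockout-labelled and control livers (horizontal axis) for the 21 core autophagy genes named by rule, under edgeR with TMM factors (black), 4 other treatments of scaling or length (coloured symbols) and the range with 1 library left out (grey bars). Ulk1, Rb1cc1, Rubcn, Atg14, Becn1, Wipi1, Atg2a, Atg4c, Gabarapl1 and Calcoco1 stay above 0 under all of these. Atg7, Map1lc3a and Gabarap stay below 0 under all of them. Atg2b and Sqstm1 pass below 0 with the effective length offset.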

How the data were processed

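Liver RNA from 6 mice was measured. Each deposited file lists the authors' estimated counts and TPM per transcript, the latter scaled to 1 total per library, and has Salmon's columns, per the file headers. The submitters' processing notes name Bowtie2 2.2.5, RSEM 1.2.8, DESeq and GRCm38, with no roles, and give no Salmon options. Effective lengths show that knockout-labelled replicate 1 was quantified with a fixed fragment setting (100-base transcripts have 3.50 there and 100 elsewhere).

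Estimated counts of 113664 of 115221 transcripts were summed per gene (GENCODE M21), rounded, filtered with filterByExpr, scaled by TMM and tested by the two-sided edgeR 4.0.16 quasi-likelihood test (R 4.3.3) with Benjamini-Hochberg adjustment over 12497 genes, intercept and group alone. CPM values use the TMM factors. Scripts were tested on simulated data. P-values set the difference between the groups against the spread of the 3 libraries within each group, moderated by the spread of the other genes. The edgeR test thus had 8.37 degrees of freedom, against 4 from the libraries alone. Each SE of a log2 difference was derived from that test. Alternatives used limma 3.58.1, DESeq2 1.42.0 and log2(TPM + 0.5). Genes named were the 3 members of each group with the smallest p, the ATG8 genes, Sqstm1, Ulk1, Becn1, Atg5 and Atg7, and the 4 leading genes of each other list. Members and lists were chosen with earlier results of these data known. The transcripts of 11 members share at least 300 bases at 95% identity or more with another gene. For 4 of these, Sqstm1 (Mrnip), Becn1 (Cntd1), Atg2b (Gskip) and Atg4d (Kri1), that gene overlaps in the genome, and strand use in counting is not stated. Counts limit precision: 3 counts equal 0.126 to 0.164 CPM.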

Additional observations from a re-analysis of the deposited data

How the results depend on the processing

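No alternative called a core autophagy gene, a gene of the other autophagy lists or G3bp1. The smallest adjusted p of a member in any setting was 0.106, with replicate 1 of both groups left out. The median of the members, 0.080, was 0.350 with library totals, 0.332 on deposited TPM, -0.0345 after correction for length and GC content, -0.0109 with the effective length offset, 0.167 with limma voom sample weights and -0.0311 with the replicate block together with that correction. Leaving out 1 library gave medians from 0.0064 to 0.165. It left 6 to 23 members without overlap (16.7% to 63.9%), against 12.7% to 36.0% of all genes. The 2 against 2 comparison, chosen after seeing the data, gave 28 (77.8%), against 54.6% of all genes. G3bp1 was 0.0745 with library totals and 0.163 on TPM, where the medians of all genes were 0.274 and 0.270. With library totals Tax1bp1 was 0.0722, Map1lc3b 0.0457, Gabarapl2 0.0347 and Atg5 0.0460, and on TPM Atg10 was 0.0504, Tax1bp1 0.161, Map1lc3b 0.0920, Gabarapl2 0.292 and Atg5 0.149. After the correction Atg13 was -0.0217, and with the offset Atg2b was -0.120 and Sqstm1 -0.0301. With the replicate block and the correction Atg13 was -0.0043 and Map1lc3a 0.00026. The cause was not tested. Equal replicate numbers were not taken as pairs, since the correlations of their deviations were 0.20, 0.27 and -0.14, and control replicates 2 and 3 correlated best with another number. The replicate block called 0 genes, with a median of 0.075 over the members. Control replicate 1 and knockout-labelled replicate 1 do share transcript shares, as given for Pik3c3 and Atg9a. Depth kept Atg9b, with 1 to 4 counts per library, out of the test.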

Other observations

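Some members had large shares of their estimated counts on transcripts that are not annotated as coding, with different shares between libraries. Pik3r4-211, a retained-intron transcript of 1358 bases, held 90.6%, 56.7% and 70.9% of the Pik3r4 counts in controls and 89.0%, 45.7% and 31.5% in knockout-labelled livers. Becn1-201, annotated for nonsense-mediated decay, held 85.8%, 59.7% and 67.0% of the Becn1 counts in controls and 81.2%, 47.5% and 38.8% in knockout-labelled livers. Rubcn-206, another retained-intron transcript, held 88.8%, 91.3% and 93.6% in controls and 93.1%, 64.8% and 61.4% in knockout-labelled livers. Only protein-coding transcripts with a found start were summed in an alternative chosen after seeing the data. The log2 differences were then 0.74 for Pik3r4, 2.35 for Rubcn and 1.91 for Nbr1, against 0.00, 0.44 and 0.08 on all transcripts. No member was called (smallest adjusted p 0.904, edgeR). For Rubcn and Nbr1 few counts were left in some libraries. Rubcn-206 held 116 of the 131 Rubcn counts in control replicate 1 and 122 of 131 in knockout-labelled replicate 1. Nbr1-217, whose start is not found, held 2766 of 2842 and 2776 of 2832 Nbr1 counts in the same libraries. Becn1 overlaps Cntd1 in the genome, which had at most 2.4 estimated counts in a library.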
